A study of Mus musculus with 9 samples.

Results

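The cornified envelope genes of the epidermal differentiation complex were followed in sorted plantar basal keratinocytes of mice. They were chosen by symbol as the late cornified envelope genes (Lce), the small proline-rich genes (Sprr), Ivl, Lor, Flg, Flg2, Hrnr, Rptn, Tchh, Tchhl1, Crnn, Kprp and Crct1. This rule took 47 of the 22399 genes in the deposited expression table, and 13 of the 47 reached a mean of 1 FPKM over all libraries. FPKM counts fragments per kilobase of gene, scaled by library depth, so levels can be compared between genes of different length. All 47 genes lie on chromosome 3 between positions 92080271 and 93471980 of GRCm38, a span of 1.39 Mb.

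RNA was sequenced in 9 libraries of plantar epidermis, from cells positive for CD49f (the integrin alpha 6 chain of basal cells) and negative for CD34 (a hair follicle stem cell marker). The animals were wild-type C57BL/6 throughout, with 3 libraries a group. The control group, 5 months of age, was fed normally; the HFD group, of equal age, got a high-fat diet (HFD); and the aged group was 24 months of age, its diet not being given in the labels. The comparisons ask what the diet or old age does to these cells. The labels name no batch and do not tell whether the samples of a group are separate animals, so each p-value covers the scatter of these samples alone, and that scatter may be technical.

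The cornified envelope is the protein shell that replaces the plasma membrane of keratinocytes as they die at the skin surface. Transglutaminases cross-link its building blocks, which are made late, in the granular layer: involucrin lays down the scaffold, loricrin and the small proline-rich proteins reinforce it, and the late cornified envelope proteins are added last. Filaggrin and its relatives, which carry an S100-type calcium-binding domain fused to repeats, pack keratin filaments or take part in the envelope and the hair sheath. Basal cells, the cells sorted here, are the layer in which these genes are normally low.

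Promoter sequences are shown for Lor and Sprr1b, the most abundant members, and for Lce1a1 and Lce1b, the members called in the comparisons below, because these pairs behaved differently across libraries. Each is the 250 bases before the RefSeq start site on GRCm38.p6, minus strand, read 5′ to 3′. They are chr3:92083143-92083392 for Lor, chr3:92438780-92439029 for Sprr1b, chr3:92648308-92648557 for Lce1a1 and chr3:92656927-92657176 for Lce1b. In Lor and Sprr1b, capitals mark the AP-1 site TGANTCA. They also mark the TATA box, spelled TATAAA. In the other pair they mark a 17-base run that Lce1a1 and Lce1b both hold.
Lor: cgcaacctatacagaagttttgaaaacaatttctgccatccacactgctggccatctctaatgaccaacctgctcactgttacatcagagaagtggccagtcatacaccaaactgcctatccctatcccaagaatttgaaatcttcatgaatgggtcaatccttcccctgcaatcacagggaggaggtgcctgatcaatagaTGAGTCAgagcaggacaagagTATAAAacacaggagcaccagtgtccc
Sprr1b: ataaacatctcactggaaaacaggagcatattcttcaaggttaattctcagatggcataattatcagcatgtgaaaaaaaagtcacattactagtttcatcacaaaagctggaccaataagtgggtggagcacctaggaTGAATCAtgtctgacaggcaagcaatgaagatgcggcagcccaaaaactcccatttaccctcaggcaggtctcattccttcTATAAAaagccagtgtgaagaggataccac
Lce1a1: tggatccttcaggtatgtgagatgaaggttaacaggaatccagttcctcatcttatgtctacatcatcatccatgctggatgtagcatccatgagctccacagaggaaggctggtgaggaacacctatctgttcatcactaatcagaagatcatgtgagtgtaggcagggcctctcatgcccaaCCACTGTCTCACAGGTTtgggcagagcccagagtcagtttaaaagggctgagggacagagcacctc
Lce1b: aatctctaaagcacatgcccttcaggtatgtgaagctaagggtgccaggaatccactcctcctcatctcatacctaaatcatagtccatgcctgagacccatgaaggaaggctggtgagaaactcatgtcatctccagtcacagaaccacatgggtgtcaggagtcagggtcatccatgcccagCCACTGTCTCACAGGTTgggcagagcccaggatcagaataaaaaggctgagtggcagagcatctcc

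The RefSeq table held a promoter for 43 of the 47 members, with Lce1f, Kprp, Crct1 and Sprr2j-ps left over. On either strand, TGANTCA was present in 16 of the 43 members and in 6.75% of all 32851 promoters. It occurred in both Sprr1 genes, in 7 of 10 Sprr2 genes, and in Ivl, Lor, Flg, Flg2, Crnn, Rptn and Tchhl1, and in 0 of 13 Lce1 and 0 of 6 Lce3 promoters. TATAAA was present in 20 of the 43 and in 12.4% of all promoters, but in 2 of 13 Lce1 genes. In Lor the AP-1 site began 48 bases before the start site and the TATA box 27 bases before it, and in Sprr1b they began at 111 and 30. The run held by Lce1a1 and Lce1b, CCACTGTCTCACAGGTT, began 66 bases before the start site in both, and was found in 2 of all 32851 promoters. A 12-base core, ACTGTCTCACAG, was held by 7 of the 13 Lce1 promoters and by 8 of all promoters. Aligned over the 250 bases, pairs of Lce1 promoters had a median identity of 62.1% (46.3% to 85.6%), against 50.4% for Lce1 genes paired with Lor or Sprr1b. These matches describe the letters only; no binding was measured.

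Loricrin and the SPRR1 proteins supplied most of the cornified envelope transcripts in these cells. Sprr1b, a cross-linked envelope precursor, had the highest mean over all libraries at 36.7 FPKM, followed by Lor at 27.7 and Sprr1a at 10.1. The highest pair of members in each library made up 51.7% to 67.8% of the summed FPKM of all 47. Crct1, a small cysteine-rich protein of the complex, had a mean of 5.27 FPKM, and Ivl one of 3.53. Tchh, the trichohyalin of the inner root sheath and some epithelia, stood at 2.35, Hrnr (hornerin) at 2.12 and Flg (filaggrin) at 1.34. The 5 Lce1 genes that reached the minimum were Lce1m, Lce1a1, Lce1c, Lce1b and Lce1a2, with means from 1.01 to 1.86. For scale, the basal keratin Krt5 was at 10316 to 14406 FPKM in the same libraries and Cd34 did not exceed 0.0671.

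The other 34 members stayed under the minimum, and 9 of them had no read in any library: Sprr2a2, Sprr2e, Sprr2f, Sprr2i, Sprr2j-ps, Sprr3, Lce3a, Lce3b and Tchhl1. The 25 remaining had between 1 and 829 reads over the 9 libraries together. Just outside the minimum were Sprr2b (0.967 FPKM), Lce1f (0.873) and Sprr4 (0.792), and just inside were Lce1a2 (1.01), Lce1b (1.12) and Lce1c (1.31). Read numbers were recovered from the deposited values and exon lengths, and library depth came out at 23.5 to 35.8 M reads.

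**Figure D1:**
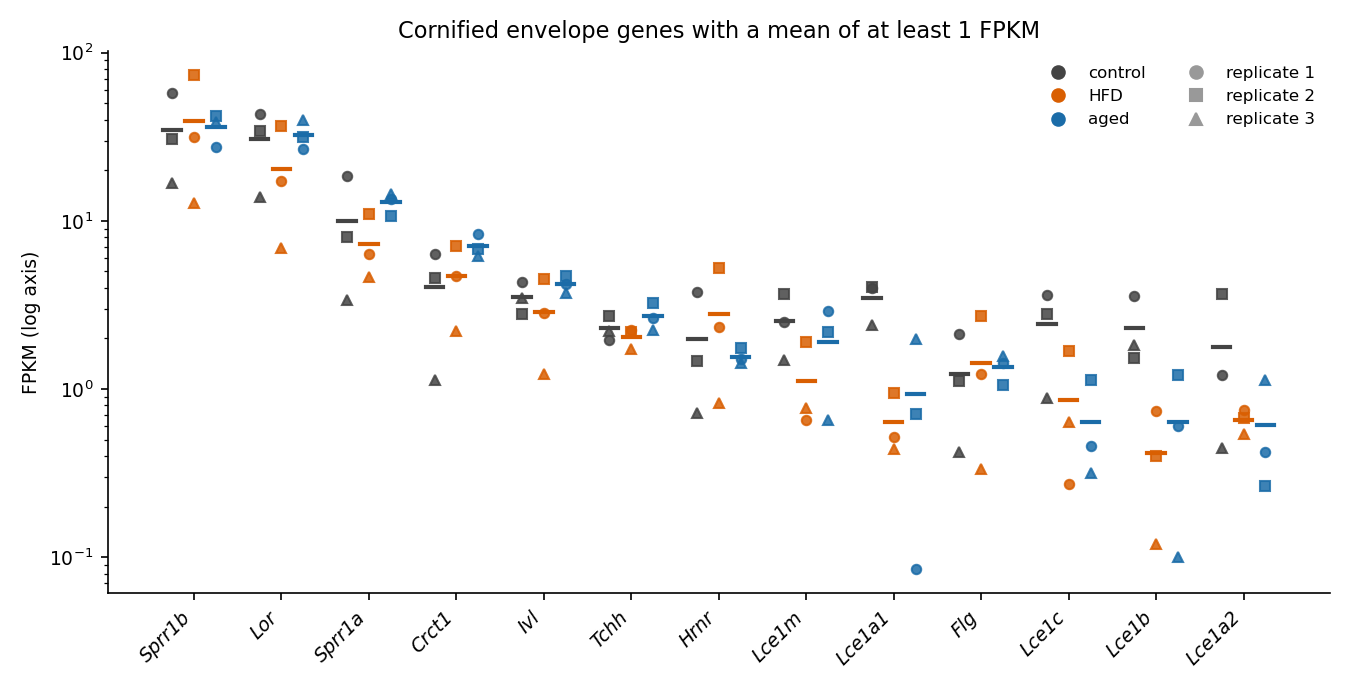
FPKM (log axis) of the 13 cornified envelope genes at the minimum of 1 FPKM, ordered by mean; each point is a library (colour for group, shape for replicate) and each bar a group mean of 3. Sprr1b and Lor are highest, and in most genes outside Lce1 the groups overlap.

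Lor, which encodes the main reinforcement protein of the envelope, had 43.2, 34.3 and 13.8 FPKM across control replicates 1 to 3, 17.3, 36.5 and 6.88 under HFD and 26.6, 31.3 and 39.6 in aged. Sprr1b had 57.2, 30.6 and 16.7 in control, 31.3, 73.2 and 12.7 under HFD and 27.6, 42.0 and 38.7 in aged. The groups overlapped in both genes, and control replicate 3 and HFD replicate 3 were the lowest of their groups. Sprr1a followed the same order within control and HFD, with 18.5, 8.03 and 3.38 FPKM in control, 6.36, 10.99 and 4.61 under HFD and 13.5, 10.7 and 14.5 in aged. Crct1 was at 6.37, 4.56 and 1.13 in control, 4.73, 7.13 and 2.20 under HFD and 8.30, 6.79 and 6.18 in aged, so that 2 of 3 aged libraries were above all control libraries. Ivl, the scaffold protein, was steadier, at 4.34, 2.78 and 3.48 in control, 2.84, 4.49 and 1.23 under HFD and 4.19, 4.70 and 3.72 in aged.

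The fused S100-type genes at the minimum also varied mainly inside the groups. Flg was at 2.13, 1.12 and 0.425 FPKM in control, 1.22, 2.71 and 0.337 under HFD and 1.43, 1.06 and 1.57 in aged. Hrnr, a filaggrin relative, was at 3.78, 1.46 and 0.724 in control, 2.34, 5.24 and 0.831 under HFD and 1.502, 1.75 and 1.43 in aged. Both genes show the high control replicate 1 and HFD replicate 2 and the low replicates 3 seen for Sprr1b. Tchh differed, with 1.96, 2.71 and 2.21 FPKM in control, 2.24, 2.17 and 1.74 under HFD and 2.65, 3.27 and 2.25 in aged. Every aged library was above every HFD library in Tchh, though narrowly, and its adjusted p was 0.206 in limma. Hrnr, Rptn and Tchh overlap a predicted gene, Flg overlaps a pseudogene, and since strand use in counting is not stated these values may hold reads of both.

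Neither loricrin, the SPRR1 genes, involucrin nor the fused genes passed the test in any comparison. In HFD against control, the difference of log2(FPKM + 1) was -0.70 ± 0.49 (SE) for Lor (limma adjusted p = 0.341) and 0.004 ± 0.52 for Sprr1b (adjusted p = 0.997). For aged against control it was 0.21 ± 0.49 for Lor (adjusted p = 0.820), 0.20 ± 0.52 for Sprr1b and 0.86 ± 0.41 for Crct1 (adjusted p = 0.209). Some of these signs rest on single libraries: without control replicate 3, the aged difference turned to -0.26 for Lor and -0.23 for Sprr1b, and the HFD difference to -0.21 for Flg and -0.03 for Hrnr. At this spread, differences of the size seen were not detectable.

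Of these genes, 6 moved closely together from library to library. After subtracting each group's mean, Pearson's r over the 9 libraries was 0.83 to 0.98 (median 0.90) for the 15 pairs among Lor, Sprr1a, Sprr1b, Flg, Hrnr and Crct1. The 6 were picked without a stated rule, so this range describes a chosen set, and Ivl and Tchh were not among these pairs. With the 6 genes, Ivl had r of 0.52 to 0.85 and Tchh had r of -0.16 to 0.23. The highest r of Ivl was thus above the lowest r inside the set. The paired values share library, depth and the dissociation of that sample, and r is given as a description. Tgm1, the membrane-bound transglutaminase of the granular layer, had r of 0.87 to 0.99 with the 6 genes, and Casp14, the protease that processes filaggrin, 0.82 to 0.97. Krt5 ran opposite, with r of -0.88 to -0.70. Krt1, the early suprabasal keratin, had only 0.12 to 0.46, and Krt10, its partner, 0.45 to 0.76. Summed over Lor, Sprr1a and Sprr1b, the libraries ranged from 33.9 to 119 FPKM in control, from 24.2 to 121 in HFD and from 67.7 to 92.8 in aged, so the highest was 3.51, 4.99 and 1.37 times the lowest. Control replicate 3 was the lowest library of its group in 10 of the 13 members and HFD replicate 3 in 11. Krt5 was highest of its group in those same libraries, at 13585 and 14406 FPKM. In bulk libraries, fewer cells of a type and less RNA per cell cannot be told apart.

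**Figure D2:**
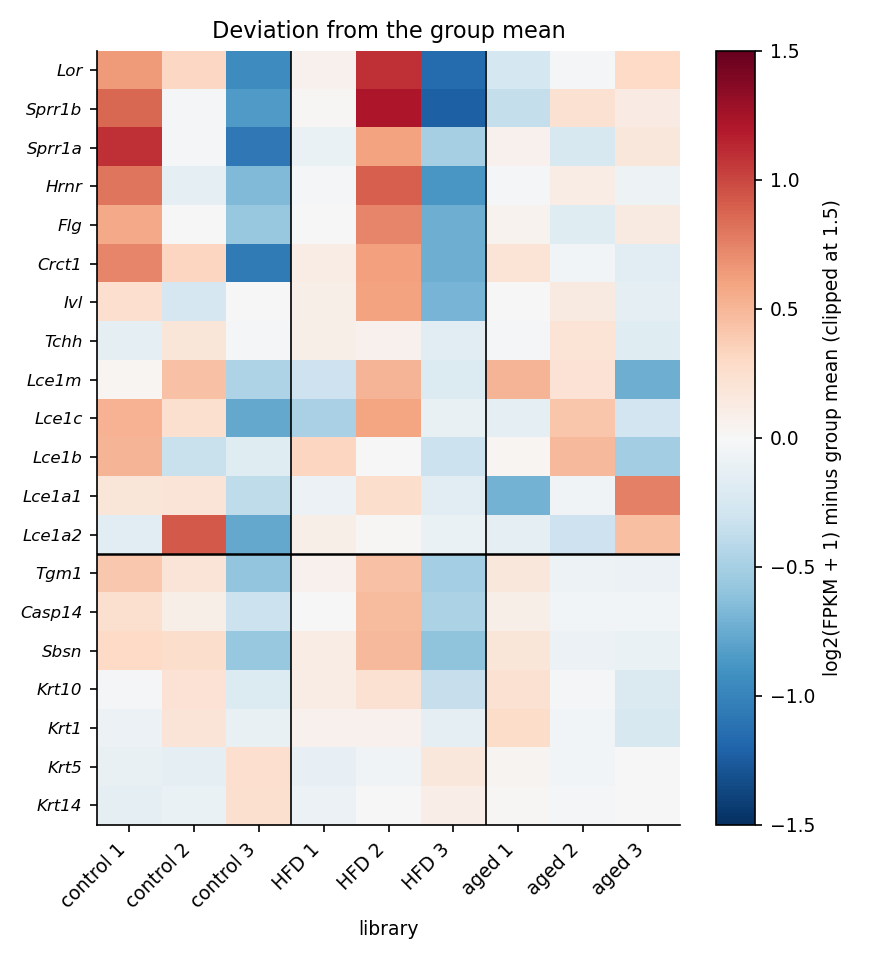
Deviation of log2(FPKM + 1) from the group mean in each library (colour, clipped at 1.5) for the 13 members at the minimum and, under the line, 7 other epidermal genes. Lor, the Sprr1 genes, Hrnr, Flg and Crct1 are low together in control 3 and HFD 3 and high in control 1 and HFD 2, as are Tgm1, Casp14 and Sbsn, while Krt5 and Krt14 are slightly high in control 3 and HFD 3.

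The late cornified envelope genes of the Lce1 family had a different pattern: they were highest in control and lower in both HFD and aged cells. All 14 Lce1 genes had a lower mean in HFD than in control, and all 14 had a lower mean in aged than in control. Among the 15708 genes with any value above 0, the mean was lower in 49.6% for HFD and 49.4% for aged. Both comparisons use the same control libraries, so they are not separate evidence, and paralogs can exchange reads. Summed over the 14 genes, the level was 23.6, 23.2 and 11.2 FPKM in control, 6.07, 8.88 and 4.63 under HFD and 6.26, 8.91 and 8.15 in aged. Every control library lay above every other library, and the HFD and aged libraries overlapped. The group values were 19.3 ± 7.03 (SD, n = 3), 6.53 ± 2.16 and 7.77 ± 1.36 FPKM, and the sums rest on 1252, 433 and 570 reads. Leaving out Lce1a1 and Lce1b, the other 12 genes summed to 13.5 ± 5.72, 5.47 ± 1.83 and 6.20 ± 0.714 FPKM. For these 12, control and HFD overlapped, with control replicate 3 at 6.99 FPKM and HFD replicate 2 at 7.54. Aged replicate 2, at 6.98 FPKM, was level with control replicate 3.

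**Figure D3:**
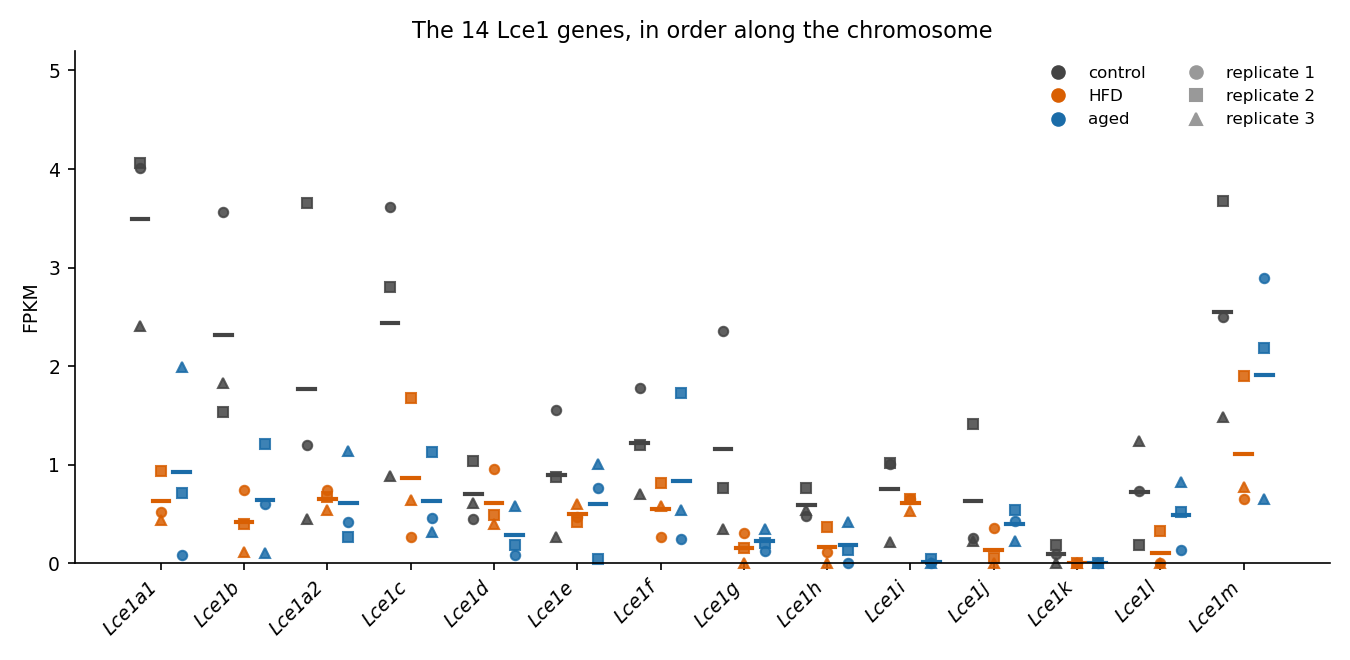
FPKM of the 14 Lce1 genes in order along the chromosome; points are libraries (colour for group, shape for replicate) and bars are means of 3. The control mean is the highest of the 3 groups in all 14 genes, while single libraries overlap in most.

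Lce1a1 lies at positions 92646535 to 92648307 of chromosome 3 on the minus strand, with 2 exons. It was at 4.01, 4.06 and 2.41 FPKM in control, 0.519, 0.942 and 0.439 under HFD and 0.0856, 0.714 and 1.99 in aged. These values stand for 214 reads in control, 39 under HFD and 61 in aged. All control libraries were above all others, with a wide spread in aged. The HFD difference was -1.45 ± 0.30 on the log2(FPKM + 1) scale (limma adjusted p = 0.00991) and the aged one -1.32 ± 0.30 (adjusted p = 0.0243). The call in HFD held in each alternative setting in which the gene was tested (highest adjusted p = 0.0446). With a minimum mean of 5 FPKM it was not tested. Lce1a1 reached the minimum of 1 FPKM only through control, with a mean of 0.782 FPKM over the HFD and aged libraries. The aged call was lost without control replicate 1 or 2 or aged replicate 1 or 2 (adjusted p up to 0.0857), with a pseudocount of 0.1 (0.0543) and with no filter on low values (0.0800).

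Lce1b, at 92655650 to 92656926 on the minus strand with 2 exons, was at 3.57, 1.54 and 1.83 FPKM in control, 0.739, 0.399 and 0.120 under HFD and 0.606, 1.22 and 0.101 in aged. Control again stood above all other libraries, on 136 reads against 26 under HFD and 40 in aged. The difference was -1.197 ± 0.28 for HFD (limma adjusted p = 0.0155) and -1.02 ± 0.28 for aged (adjusted p = 0.0450). The HFD call was lost with no filter on low values (adjusted p = 0.0539) and without HFD replicate 3 (0.0545). Without control replicate 1, Lce1b fell under the minimum and was not tested. Lce1b too reached the minimum only through control, with a mean of 0.530 FPKM over the HFD and aged libraries. The aged call was lost without control replicate 2 or 3, HFD replicate 1 or 2, or aged replicate 1 or 3 (up to 0.114), and in 5 other settings (0.0641 to 0.111). The log2 scale with 1 added understates the fold change of genes this low: with 0.1 added, the HFD differences were -2.32 for Lce1a1 and -2.33 for Lce1b.

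Lce1c was at 3.61, 2.81 and 0.885 FPKM in control, 0.272, 1.68 and 0.642 under HFD and 0.458, 1.13 and 0.315 in aged. Control replicate 3 fell among the HFD and aged values. The difference was -0.85 ± 0.34 for HFD (limma adjusted p = 0.0996) and -1.01 ± 0.34 for aged (adjusted p = 0.0889). Without control replicate 3, the overlapping control library, both passed (0.0261 and 0.0359). Other omissions weakened them, with adjusted p up to 0.2995 for HFD (without HFD replicate 1) and 0.2283 for aged (without control replicate 2). In each comparison Lce1c passed in 2 of 20 settings, the main one included among the 20. Lce1m, set apart from the other Lce1 genes beyond Crct1, was at 2.496, 3.67 and 1.49 FPKM in control, 0.652, 1.91 and 0.775 under HFD and 2.89, 2.19 and 0.653 in aged. The aged libraries spanned nearly the whole range of Lce1m, whose difference was -0.75 ± 0.32 in HFD (adjusted p = 0.125) and -0.33 ± 0.32 in aged. Lce1a2 had 1.205, 3.65 and 0.448 FPKM in control, so its control mean of 1.77 ± 1.68 (SD, n = 3) rested on replicate 2, against 0.653 ± 0.104 under HFD and 0.609 ± 0.467 in aged.

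Over the 38 members with a read, groups did not overlap in 5 that were lower (Lce1a1, Lce1b, Lce1g, Lce1h and Kprp) and 1 that was higher (Sprr2a3) in HFD than in control, against 15.3% and 15.4% of 15708 genes. For aged against control it was 4 lower (Lce1a1, Lce1b, Lce1h and Lce1i) and 0 higher, with 11.2% of all genes in each direction. For aged against HFD it was 2 lower (Sprr2a3 and Lce1i) and 1 higher (Tchh), with 12.0% and 11.6%. Of the 13 members tested, 2 were called lower and 0 higher in HFD against control by limma, which is 15.4%, against 17.0% of all 10367 genes (8.76% lower and 8.26% higher). For aged against control it was again 2 lower and 0 higher, 15.4% against 7.76% of all genes (3.74% lower and 4.01% higher). The pair was Lce1a1 and Lce1b both times. For aged against HFD it was 0 of 13, against 7.99% of all genes called (4.45% lower and 3.54% higher). At an unadjusted limma p under 0.05 the members numbered 4 of 13 for HFD against control, 3 for aged against control and 0 for aged against HFD. No share of all genes was taken at that threshold, so nothing is read from these counts. The means of 47.1% of all genes with a value were lower in aged than in HFD. Limma's F test for any difference among the groups called the same pair, 2 of 13, against 20.4% of all genes. The share called in HFD is thus near the background, and these counts say nothing particular about the members. The minimum also favours differences, since Lce1a1, Lce1b, Lce1c and Lce1a2 reached it only through control: over the HFD and aged libraries their mean was 0.782, 0.530, 0.750 and 0.631 FPKM. The median difference over the 13 was -0.32 under HFD and 0.15 in aged against control, with medians of 0.009 and -0.006 over all genes tested.

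The 9 Lce1 genes under the minimum had 8.73, 7.45 and 4.17 FPKM summed in control, 3.14, 3.28 and 2.11 under HFD and 1.80, 3.39 and 3.95 in aged. All control sums were above all others. Lce1g was at 2.36, 0.762 and 0.346 FPKM in control, 0.304, 0.160 and 0 under HFD and 0.130, 0.204 and 0.353 in aged, on 98, 14 and 20 reads. Lce1h, with 36, 10 and 12 reads, had 0.479, 0.764 and 0.544 FPKM in control and at most 0.366 under HFD and 0.416 in aged. Lce1i had 47 reads in control, 40 under HFD and 1 in aged, so it was the Lce1 gene in which aged and HFD libraries did not overlap. In a fit without the filter, no gene among these 9 passed after adjustment, where 7.61% and 3.63% of 15708 genes were called in HFD and in aged against control (limma adjusted p = 0.0968 for Lce1h in HFD and 0.0603 for Lce1i in aged against control).

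From Lce1a1 to Lce1l the Lce1 genes are neighbours, with Kprp, a proline-rich keratinocyte protein, inside the row. All 14 genes of that row, Kprp included, had a lower mean in HFD and in aged than in control. Kprp was at 1.17, 1.11 and 0.610 FPKM in control, 0.382, 0.568 and 0.340 under HFD and 0.398, 0.634 and 0.311 in aged. The HFD libraries were all under the control libraries, while aged replicate 2 overlapped control replicate 3. Kprp has no 50-base stretch in common with another gene, unlike its neighbours, and without the filter its difference was -0.45 ± 0.13 in HFD (limma adjusted p = 0.0750) and -0.43 ± 0.13 in aged (adjusted p = 0.112). Outside Lce1, 24 members had reads, and 13 of them had a lower mean in HFD and 11 a higher one, with 11 and 11 for aged against control. The Lce1 genes share a median of 19.9% of their 50-base stretches with other transcripts (0% in Lce1m to 27.1% in Lce1i), Lce1a1 mostly with Lce1a2 and Lce1b mostly with Lce1c, so the split of reads between paralogs is uncertain.

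**Figure D4:**
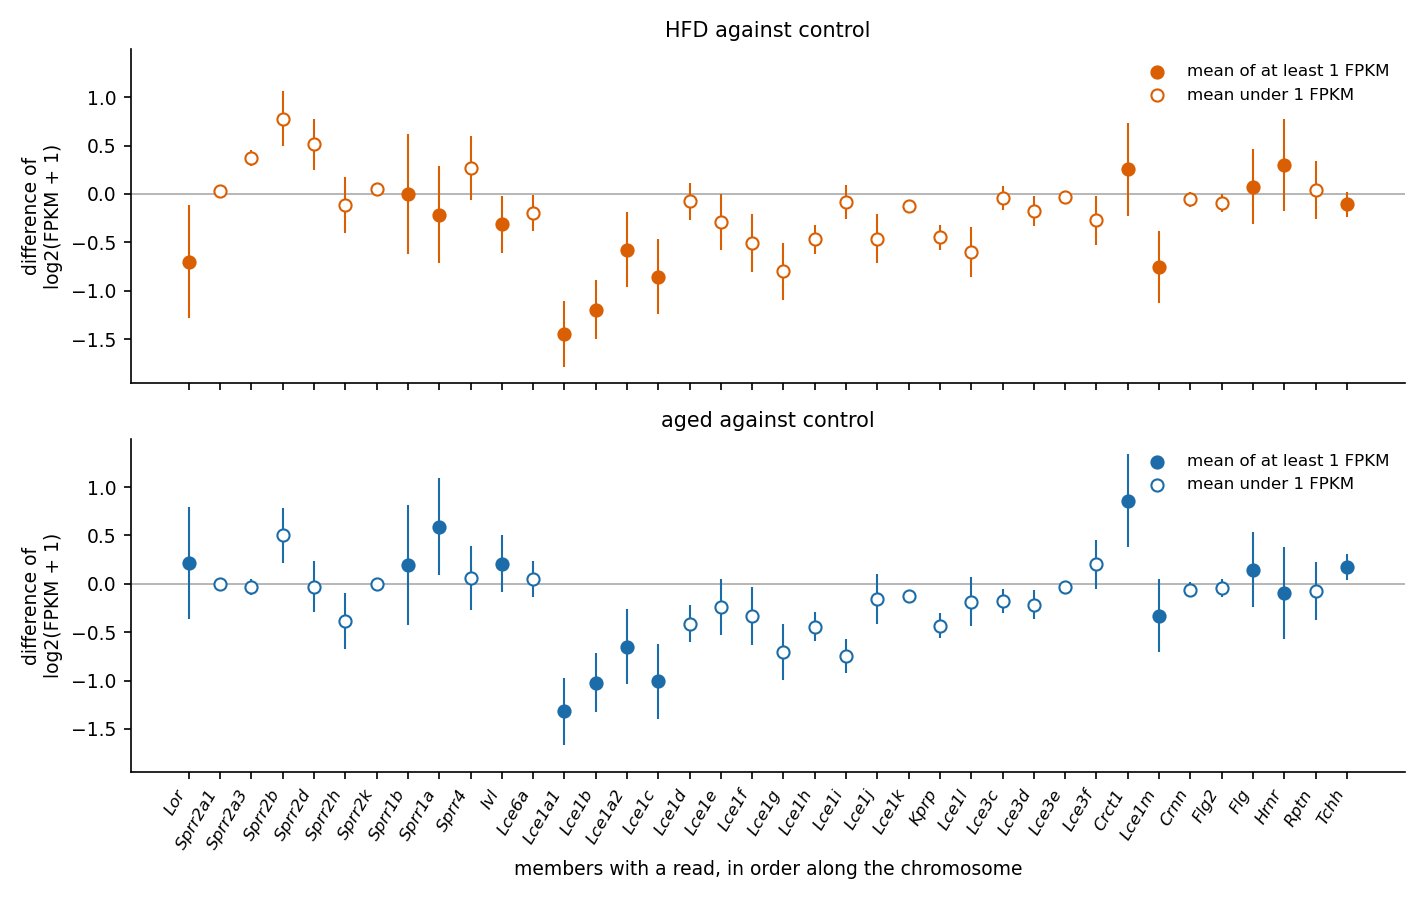
Difference of log2(FPKM + 1) from control (points, with limma SE bars, from the fit without a filter) for the 38 members with a read, in order along the chromosome, in HFD (top) and aged (bottom). Filled points have a mean of at least 1 FPKM; the row from Lce1a1 to Lce1l lies under 0 in both panels, and genes on either side lie both above and below 0.

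The Lce1 level was also set beside that of Lor and the Sprr1 genes in each library. As a percentage of the summed FPKM of Lor, Sprr1a and Sprr1b, the 14 Lce1 genes were at 19.9, 31.8 and 33.2 in control, 11.04, 7.36 and 19.2 under HFD and 9.25, 10.6 and 8.78 in aged. Every control library was above every other one, HFD replicate 3 coming within 1 point of control replicate 1. The HFD library with the highest Lor and Sprr1 sum, replicate 2 at 121 FPKM, had 8.88 FPKM of Lce1, whereas control replicate 1, at 119 FPKM, had 23.6. Within groups, the pairs among the 5 Lce1 genes at the minimum had r from -0.41 to 0.69 (median 0.29). Taken alone, these few reads followed a common order of libraries only loosely. Their 30 pairs with Lor, Sprr1a, Sprr1b, Flg, Hrnr and Crct1 were all positive, at 0.13 to 0.75 (median 0.45). The Lce1 sum was also lowest of its group in control replicate 3 and HFD replicate 3, at 11.2 and 4.63 FPKM. Lce1 thus shared part of the variation between libraries.

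**Figure D5:**
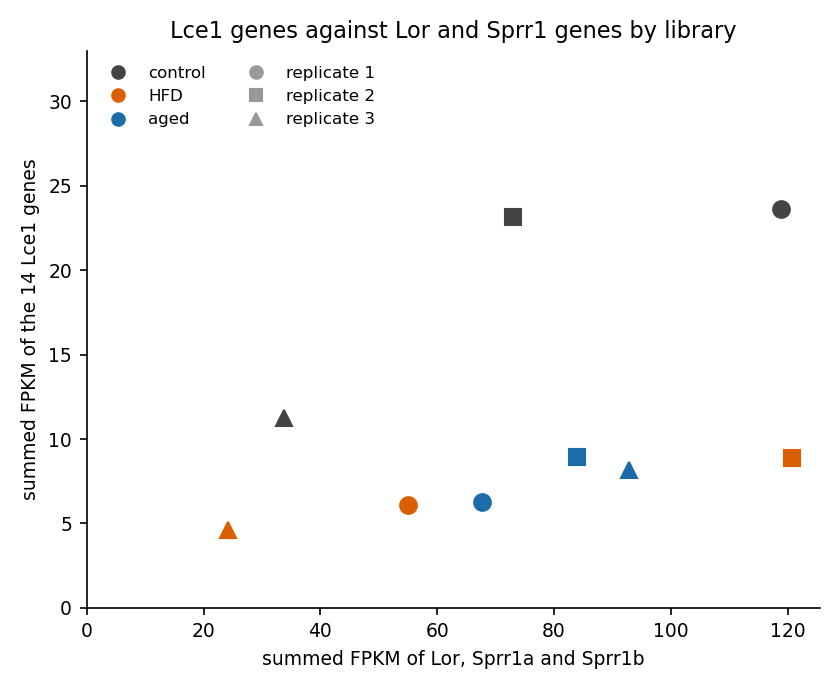
Summed FPKM of the 14 Lce1 genes against summed FPKM of Lor, Sprr1a and Sprr1b, with a point per library (colour for group, shape for replicate). At a like level of Lor and Sprr1, control libraries carry more Lce1, for example 23.6 in control replicate 1 against 8.88 in HFD replicate 2.

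The Sprr2 genes, small proline-rich proteins known to rise in stressed epithelia, were low and leaned the other way in HFD. Of the 11, 6 had reads, and 5 of these had a higher mean in HFD than in control. Their sum was 2.69, 1.74 and 0.795 FPKM in control, 3.34, 6.24 and 1.61 under HFD and 1.49, 1.87 and 1.95 in aged, so HFD overlapped both other groups. Among the 5 higher genes, Sprr2a1 and Sprr2k had only 5 and 2 reads in the whole series, with none in control. Sprr2d had 30 of its 45 HFD reads in replicate 2. Over the 15708 genes with a value, 49.6% had a lower mean in HFD than in control. Sprr2a3 was at 0.235, 0.0863 and 0.156 FPKM in control, 0.430, 0.602 and 0.470 under HFD and 0.0105, 0.164 and 0.238 in aged. All HFD libraries were above all others, on 126 reads against 42 in control and 37 in aged. Without the filter its difference was 0.37 ± 0.08 in HFD against control (limma adjusted p = 0.0343), where 7.61% of 15708 genes were called, and -0.40 ± 0.08 in aged against HFD (adjusted p = 0.0427), where 3.44% were. Sprr2a3 shares 61.1% of its 50-base stretches with other genes, mainly Sprr2a1, so its reads cannot be assigned with certainty. Sprr2b had 0.902, 0.423 and 0 FPKM in control, 1.79, 2.07 and 0.593 under HFD and 1.001, 1.04 and 0.874 in aged. HFD overlapped both other groups in Sprr2b, and without the filter its difference in HFD was 0.78 ± 0.29 (adjusted p = 0.134).

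The Lce3 genes, which are known from wounded and psoriatic skin, were close to silent, with 33, 6 and 25 reads summed over the 6 genes in control, HFD and aged. Of the control reads 31 came from replicate 1, so no group level can be given. Lce3f made up all 25 aged reads, in replicates 1 and 2, and had none in HFD. Lce6a was at 0.161 to 0.619 FPKM in control, 0 to 0.496 in HFD and 0.266 to 0.752 in aged, which overlap. Rptn, a fused gene of the granular layer, ranged from 0.0187 to 1.25 FPKM, with both ends in HFD. Flg2 did not exceed 0.305 FPKM and Crnn 0.165 in any library, and Sprr4 was at 0.133 to 1.76 with all groups overlapping.

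Other genes of the envelope and the upper layers were tested as lists, beside a background of 17.0% of all genes called in HFD and 7.76% in aged against control. Of 16 cross-linker and scaffold genes tested, 2 were called higher and 0 lower in HFD, and 0 in aged against control. Tgm3, a transglutaminase of late differentiation, rose from 221 ± 19.2 to 318 ± 23.7 FPKM in HFD (0.53 ± 0.09, limma adjusted p = 0.00521) and was at 226 ± 22.0 in aged. Tgm1 was at 2.29 ± 1.08, 2.01 ± 0.956 and 2.52 ± 0.358 FPKM and was not called. Serpinb5 (maspin) rose by 0.35 ± 0.09 in HFD. Of 27 granular layer enzymes and corneodesmosome genes, 1 rose and 2 fell in HFD, and 3 rose and 1 fell in aged against control. The fallers in HFD were Calm4 and Calm5, calmodulin-like proteins of differentiating skin, at -0.67 ± 0.15 and -0.63 ± 0.14. Klk10, a kallikrein protease, rose by 0.42 ± 0.10 in HFD, and Krt77, a keratin of ducts and suprabasal cells, by 0.94 ± 0.26 in aged. Krt77 reached the minimum only through aged, at 3.04 ± 1.40 FPKM against 1.07 ± 0.448 in control and 0.838 ± 0.483 in HFD. Of 15 spinous genes, 1 rose in HFD and 2 in aged, with 0 lower in both. Krt6a, a keratin of palm, sole and wounded skin, rose by 1.02 ± 0.19 in HFD. Krt1 went from 1260 ± 153 to 1936 ± 351 FPKM in aged (0.61 ± 0.13, adjusted p = 0.0198), and Krt10 had 0.53 ± 0.17 (adjusted p = 0.0761).

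Among regulators known to act on the complex, most did not pass the test. Of 29 tested, 4 rose and 5 fell in HFD and 4 rose and 1 fell in aged against control, where 17.0% and 7.76% of all genes were called. The AP-1 subunit Fos went from 146 ± 25.5 to 229 ± 69.9 FPKM in HFD and 465 ± 50.9 in aged (0.62 ± 0.19, limma adjusted p = 0.0443, and 1.68 ± 0.19, adjusted p = 8.85e-04). Jun and Junb rose in aged by 1.49 ± 0.19 and 0.83 ± 0.15. In HFD, Jun and Junb were not called (0.27 ± 0.19 and -0.29 ± 0.15, limma adjusted p = 0.334 and 0.195). Fosl1 fell there by 0.87 ± 0.23, Jund by 0.77 ± 0.21 and Fosl2 by 0.37 ± 0.11. Ehf, an ETS factor of differentiating epithelia, rose in HFD by 1.57 ± 0.23. Of 15 NRF2 pathway genes, 2 rose and 3 fell in HFD and 2 rose and 1 fell in aged. Among them Osgin1 fell by 1.16 ± 0.17 in HFD and by 0.72 ± 0.17 in aged, whereas Gclm rose in both, by 0.38 ± 0.09 and 0.47 ± 0.09. Me1 fell by 0.46 ± 0.10 in HFD, and Gsta3 rose by 1.02 ± 0.13 in aged. Of the other genes in the complex, mainly S100 genes, 10 were tested, and 4 rose and 0 fell in HFD, with 0 and 1 in aged. S100a1 rose by 0.27 ± 0.09 in HFD and fell by 0.36 ± 0.09 in aged against control. The alarmins S100a8 and S100a9 rose in HFD by 2.31 ± 0.40 and 2.47 ± 0.60. Their control means were under the minimum, at 0.504 ± 0.169 and 0.653 ± 0.833 FPKM. The HFD libraries spread widely, at 7.79 ± 5.73 and 8.76 ± 5.58 FPKM. S100a8 reached the minimum only through HFD, the group in which it was high. Of 12 basal genes, 2 rose and 1 fell in HFD, and 1 rose and 0 fell in aged. Dst, a hemidesmosome plakin, rose in both, by 0.53 ± 0.08 and 0.36 ± 0.08, Itga6 rose by 0.29 ± 0.07 in HFD, and Itga3 fell by 0.45 ± 0.11 there.

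Markers of other cells were low, and 1 fibroblast marker, Dcn, was lower in HFD than in control, the direction seen for Lce1. Fibroblast markers summed to 4.51 to 6.64 FPKM in control, 1.498 to 2.55 in HFD and 3.48 to 4.45 in aged, with 1 of 6 at the minimum (Dcn, -1.04 ± 0.16 in HFD, limma adjusted p = 0.00239) and Lum at 0 throughout. Dcn alone was at 4.45 to 6.47 FPKM in control, 1.41 to 2.34 in HFD and 3.37 to 4.44 in aged. It was not called in aged against control (-0.37 ± 0.16, limma adjusted p = 0.160). Unlike the Lce1 genes, Dcn was called higher in aged than in HFD (0.67 ± 0.16, limma adjusted p = 0.0248). The fibroblast sums were thus nearly all Dcn, and a shift of the other fibroblast markers cannot be read from them. The part of Dcn in the Lce1 result was not tested. Hair follicle markers summed to 6.39 to 11.2, 10.05 to 12.1 and 13.7 to 15.4 FPKM, with 2 of 5 at the minimum and Sox9 higher in aged (0.64 ± 0.14). Sweat gland markers summed to 2.98 to 6.93 in control, 3.91 to 5.71 in HFD and 3.45 to 5.66 in aged (1 of 6 at the minimum, not called), and Langerhans and myeloid markers to 3.55 to 9.54, 3.13 to 6.03 and 3.25 to 5.604 (1 of 5, not called). Melanocyte and endothelial markers stayed under 0.897 and 0.277 FPKM in sum, with none at the minimum.

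Outside the members, the genes whose levels followed the Lce1 profile most closely were searched among 10347 genes tested. The profile was the mean of the centred log2(FPKM + 1) of the 5 Lce1 genes at the minimum over the 9 libraries. Of these 5 genes, 4 reached the minimum only through control. That choice favours a profile high in control, and so genes that are higher in control. Elovl5, a fatty acid elongase, came highest at Pearson's r = 0.973, with 4.81 ± 0.848 FPKM in control, 2.85 ± 0.677 under HFD and 2.97 ± 0.242 in aged. Rps6kb2, an S6 kinase, followed at 0.953, Eno3, the muscle enolase, at 0.950, Dennd6b at 0.945 and Capn15, a calpain, at 0.945. These are the extremes of a search over points that share libraries and groups, so r describes likeness only.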

How the data were processed

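The authors deposited one table of FPKM, 1 column per library; per the submitters' processing notes, the build was mm10 and the tools were DESeq2 1.30.0, HTSeq 0.11.2, STAR 2.6.0c and cutadapt, whose roles are not stated. Strand setting, gene lengths and read length are not given in the sources used here. Values were used as deposited, taken as log2(FPKM + 1) and fitted with limma 3.58.1 in R 4.3.3 (one mean per group, all 9 libraries, eBayes with trend, two-sided) for the 10367 genes averaging 1 FPKM or more, adjusted by Benjamini-Hochberg over all of them and called under 0.05. The fit was tested on simulated data. Low FPKM times GENCODE M21 exon length (merged exons) was a whole multiple of one step in 97.5% to 98.2% of values up to 30 reads (tolerance 0.02), which gave reads and depth; sums of reads cover counting error only. M21 matched 22285 of 22399 identifiers.

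Members, lists and tests were chosen with earlier results of these data known. Named with every library's value were members called in a comparison and the highest of each family, then others by range; of each other list, up to 4 genes with the smallest unadjusted p, beside Tgm1, Krt10, Fosl1, Jund and Fosl2, added after their values were seen. Sequences came from RefSeq (GRCm38.p6). Alternatives were another pseudocount, filter, normalization, library weights, a robust fit, a replicate block, a GC correction (loess, span 0.5, degree 1), a fit of just the 6 libraries of a comparison, and omission of every library in turn.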

Additional observations from a re-analysis of the deposited data

How the results depend on the processing

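Of 737 pairs of a gene-level result and an alternative, 677 kept direction and side of the threshold, 35 reversed, 19 lost a call and 6 gained one. The 2 members called in HFD against control became 0 with a minimum mean of 5 FPKM, which removes every Lce1 gene, and 1 to 3 on leaving out a library; with no filter they were 2, of which Sprr2a3 replaced Lce1b, and without HFD replicate 3 Sprr2b passed the minimum through HFD alone and replaced Lce1b. The 2 called in aged against control became 0 with a pseudocount of 0.1, with no filter and with the minimum of 5 FPKM, 1 with library weights, GC correction or only the 6 libraries compared, and 0 to 2 on leaving out a library. For aged against HFD, 0 became 1 with no filter (Sprr2a3). The F test gave 1 with no filter or GC correction, 0 with the minimum of 5 FPKM, and 1 to 3 on leaving out a library. Except where stated, the cause was not tested.

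Reversals were all in differences that were not called. For HFD against control, Sprr1b was at -0.00178 with a pseudocount of 0.1, -0.0271 with quantile normalization and -0.0454 with scaling to total FPKM. On leaving out a library, this comparison ran from -0.60 to 0.62 for Sprr1b, -0.75 to 0.33 for Sprr1a, -0.62 to 0.0326 for Ivl, -0.27 to 0.62 for Crct1, -0.30 to 0.44 for Flg and -0.14 to 0.74 for Hrnr. Aged against control ran from -0.26 to 0.53 for Lor, -0.23 to 0.63 for Sprr1b, -0.58 to 0.0360 for Lce1m, -0.14 to 0.43 for Flg and -0.42 to 0.31 for Hrnr. For aged against HFD, library weights gave -0.11 for Sprr1b, -0.0343 for Lce1a1 and -0.18 for Flg, a pseudocount of 0.1 gave -0.0467 for Lce1a1, quantile normalization -0.0113 for Flg, and GC correction -0.0856 for Flg with or without the replicate block. On leaving out a library, it ran from -0.29 to 0.44 for Flg, -0.84 to 0.0492 for Hrnr, -0.25 to 0.48 for Lce1a1, -0.13 to 0.0793 for Lce1a2, -0.0710 to 0.43 for Lce1b, -0.39 to 0.15 for Lce1c and -0.42 to 0.80 for Sprr1b.

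With the replicate number as a block, 4 members were called in HFD against control (Lce1c and Lce1m added) and 3 in aged against control (Lce1c added), with 19.9% and 10.97% of all genes. With the GC correction and the replicate block together, 2 and 3 were called, and Crct1 was the one added in aged against control (0.94, limma adjusted p = 0.0440). No share of all genes was taken in that setting, so these counts have no background beside them. Same-numbered libraries correlated at -0.0519 to 0.274 in their deviations, over 0.1 in 5 of 9 pairs, the 3 pairs of replicates 3 among them, and different-numbered ones at -0.286 to 0.218, over 0.1 in 3 of 18. Since not every same-numbered pair was over 0.1 and control replicate 1 correlated best with HFD replicate 2, the numbers were not taken to pair the samples. Depth limits the members under the minimum and the Lce1 genes, of which a library holds few reads.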
